A study of Mus musculus with 16 samples.

Results

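Motile cilia genes of the mouse were followed through 8 tissues. The group was defined by name and holds 52 protein-coding GENCODE M21 genes of 21,951, namely 15 axonemal dynein heavy chains (Dnah), 2 dynein intermediate chains (Dnaic1 and Dnaic2), 31 cilia and flagella associated protein genes (Cfap) and the 4 single genes Foxj1, Spag16, Zbbx and Tmem212. The rule itself uses no measured value. RNA of adult C57BL/6J mice was ribodepleted, made into stranded libraries and enriched by hybridization (CaptureSeq) with 1 of 2 probe designs, the one aimed at lncRNA loci and the other at annotated splice junctions. Each design was used on 8 tissues, 1 library each (16 libraries): 4 from brain (whole brain, and separately its cerebellum, cortex and olfactory bulb), the 3 organs heart, kidney and liver, and 1 that the labels call testis. No mouse was treated or mutated. The number of mice was not stated, and RNA of each nonbrain organ came from 2 pieces of the organ of 1 mouse. The tissue was the unit of every comparison, so that the spread is that between different tissues and the p-values say nothing about mice. Whole brain takes in the regions sampled separately, so the brain tissues are not fully independent and the p-values may be too small.

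Motile cilia beat because rows of dynein arms, fixed to the doublet microtubules of the axoneme, walk along the neighboring doublet. The heavy chains are the motors of the arms, intermediate and light chains hold the arms together, and radial spokes and a central apparatus control when each arm acts. In the brain, motile cilia are carried by ependymal cells, which line the ventricles and move cerebrospinal fluid. Elsewhere they are carried by cells of the airway and oviduct, and the same axoneme drives the sperm tail. Heart, kidney and liver have few cells with motile cilia, if any, while immotile primary cilia are common in kidney.

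The libraries held about 8,930,240 to 43,889,300 fragments, spike-ins included, and 7.81% to 45.6% of the fragments were ERCC spike-ins. A value is the sum of the Cuffnorm values of all assembled transcripts of a gene in a library, which stands for estimated fragments after scaling by 1 constant per library. One fragment was worth 0.289 to 1.60 units in the splice junction libraries and 1.14 to 4.77 units in the lncRNA libraries. A value of 0 therefore allows up to 4.81 units in the splice junction library of heart, which has the fewest fragments of its design. In the lncRNA library of heart it allows up to 14.3 units (both 3 fragments, for counting error only). Brain RNA was purified with TRIzol but nonbrain RNA with RNeasy columns, the brain and the nonbrain libraries were hybridized in separate pools, and they went through 16 and 17 PCR cycles after capture. Tissue group, extraction, pool and cycles cannot be told apart. In bulk tissue, fewer ciliated cells and less RNA per ciliated cell cannot be told apart either.

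The library labelled testis was low in germ cell markers and high in keratinocyte markers. Of 15 male germ cell markers, 0 were highest in the splice junction library labelled testis, 9 were at 0 there, and their summed value was 69.3 there against 77.4 (liver) to 823 (whole brain) in the other tissues. By contrast, 9 of 10 keratinocyte markers were highest there, with a summed value of 167,936 against 191 (cortex) to 6300.1 (liver). The 9 Sertoli and Leydig markers summed to 2110 there, against 894 (whole brain) to 1778 (liver), and 3 of them were highest there (Sox9, Hsd3b6 and Amhr2). Of 8 epididymis and efferent duct markers, 0 reached the mean value needed for a test. They summed to 96.0 there, nearly all from Crisp1, against 2.67 (kidney) to 14.8 (whole brain), and 5 were at 0 there. It is therefore called the library labelled testis, and values in it say nothing about sperm. In the splice junction libraries of heart, kidney and liver, the 8 keratinocyte genes tested had median values of 2.07%, 1.82% and 3.79% of those in the library labelled testis, which was hybridized in the same pool. Whether reads of pooled libraries add to low values of motile cilia genes was not tested. Neuron markers summed to 18,338 (cerebellum) to 29,704 (cortex) in the brain tissues. They summed to 12.8 in the library labelled testis, 21.8 in liver, 22.7 in kidney and 900 in heart. In heart 6 of the 7 genes were at 0, so that a single gene gave the sum.

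Most of the motile cilia genes were captured by the splice junction design. Of the 52 genes, 42 had over 90% of their summed value in that design, and 6 had more of it in the lncRNA design (Cfap36, Cfap298, Dnah14, Cfap74, Cfap45 and Cfap20). The summed lncRNA value of 5591 to 27,415 per library came mostly from Cfap36 and Cfap298. With limma, 45 of the 52 genes had a mean value of at least 10 and were tested, together with 19,352 genes in all. Between the designs, 38 of the 45 were higher in the splice junction libraries and 6 were higher in the lncRNA libraries (adjusted p under 0.05, n = 8 tissues per design), where 51.7% and 40.9% of all genes tested were called in these directions. The median log2 difference of splice junction minus lncRNA capture was 4.44 for the 45 genes and 1.08 for all genes. Cfap36, which binds the small GTPase Arl3, had the largest difference toward the lncRNA design (log2 difference -9.32 ± 0.26 SE, adjusted p = 1.17e-09), and Dnah12, a heavy chain of the inner arms, the largest toward the splice junction design (6.53 ± 0.41 SE, adjusted p = 1.45e-07). The splice junction probes left out the regions that were most abundant in brain RNA-seq, so levels of different genes depend on the probes as well as on RNA. Below, values of the brain tissues are given in the order whole brain, cerebellum, cortex, olfactory bulb. Values of the organs are given as heart, kidney, liver. Unless lncRNA capture is named, they are values of the splice junction libraries.

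**Figure D1:**
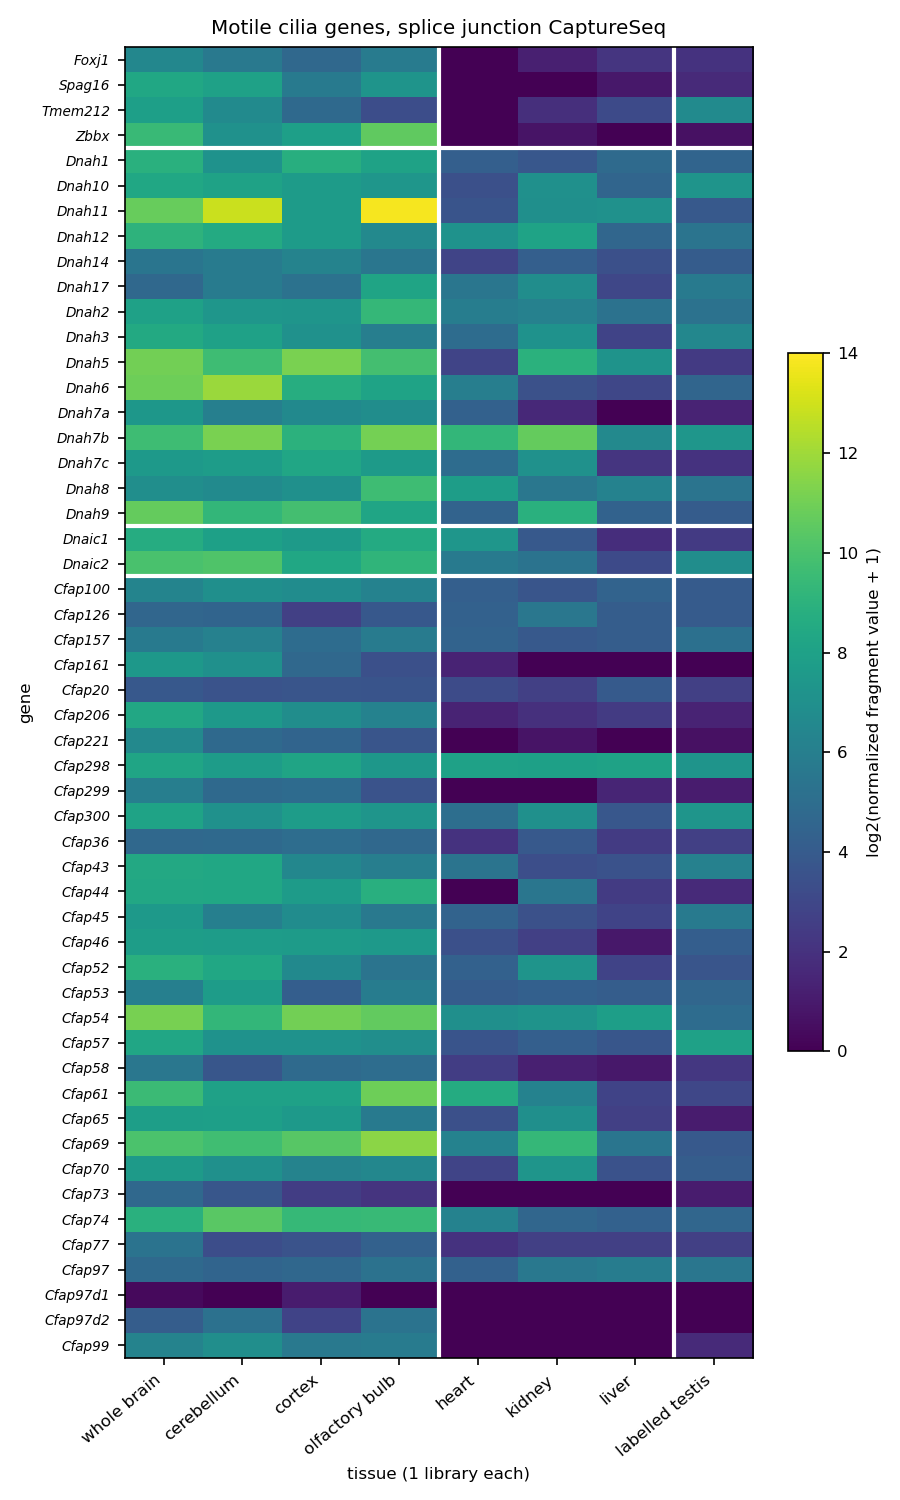
Values of the 52 motile cilia genes in the 8 splice junction libraries, as log2(value + 1) by color, with 1 row per gene (single genes, heavy chains, intermediate chains and Cfap genes from top to bottom) and 1 column per tissue. The 4 brain columns are bright for most genes, whereas 11 genes in heart, 7 in kidney and 8 in liver are at 0.

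The motile cilia genes that differed between the brain tissues and heart, kidney and liver were all higher in brain. Of the 45 genes tested, 25 were higher in brain, 0 were lower and 20 did not pass the threshold (limma on log2(value + 1) averaged over both designs, adjusted p under 0.05, 4 brain tissues against 3 organs). The mean value for this filter is taken over all 16 libraries. For 11 of the 45 genes the mean over the 8 nonbrain libraries alone was below 10. They passed only through the brain libraries and had to differ. Of these 11, Cfap53 was not called, and 10 are among the 25. The 10 are Foxj1, Spag16, Zbbx, Dnah7a, Cfap44, Cfap46, Cfap99, Cfap100, Cfap161 and Cfap206, and their p-values below are descriptions. Of the other 34, 15 were called. Both counts are descriptions. Of all 19,352 genes tested, 21.2% were called higher and 12.0% lower. The log2 difference was positive for 43 of the 45 genes, with a median of 2.45 and a range of −0.53 to 5.19, beside a median of 0.23 for all genes. In the splice junction libraries, every brain tissue lay above every organ for 36 of the 52 genes. These 52 include genes too low to be tested. The share over all genes tested, which leaves such genes out, was 23.5%. The 25 include Dnaic2, whose value lies mostly in models joined to a neighboring gene. The count of 25 fell to 16 without whole brain and to 15 without liver. Of all genes, 4099 were called higher with every tissue and 3079 to 4378 with 1 tissue left out. With fragments scaled to the library total outside the spike-ins 33 were higher and after quantile normalization 17, with 6034 and 3384 of all genes called higher and 1348 and 3366 called lower under these scalings, which moved the median log2 difference of all genes to 0.51 and −0.12. Because most genes were near 0 in the lncRNA libraries, the averaged difference is smaller than that of the splice junction libraries alone, for which the median was 3.16 and 27 genes were called higher. Of the 25, 22 were called there too, Cfap65, Dnah5 and Dnah9 were not, and Cfap157, Cfap43, Dnah2, Dnaic1 and Tmem212 were called there but not with the average.

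**Figure D2:**
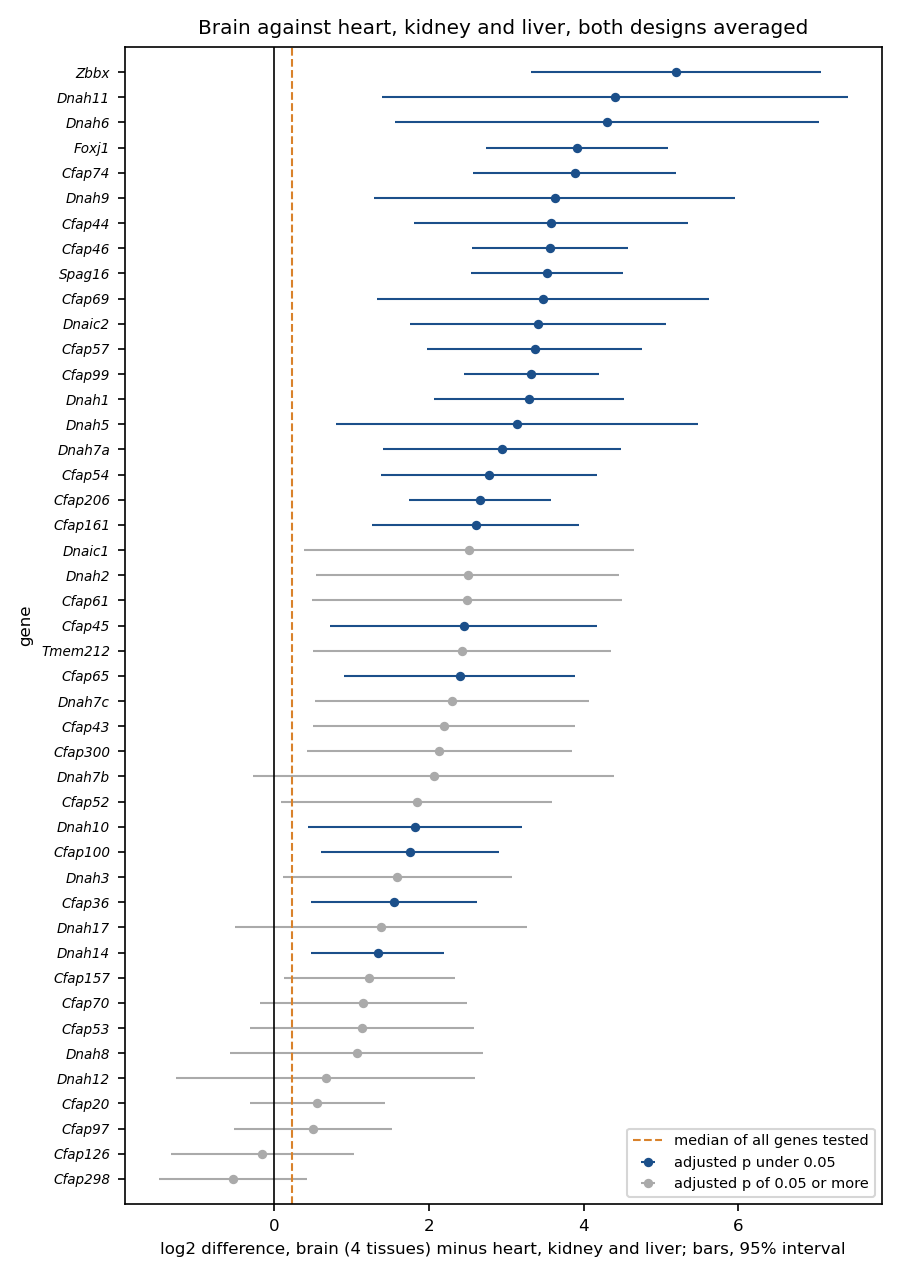
Log2 difference of brain (4 tissues) minus heart, kidney and liver for the 45 motile cilia genes tested, with 95% intervals and both designs averaged, in order of size, and the median of all genes tested as a dashed line at 0.23. The 25 genes in blue passed the threshold, and the points run from −0.53 (Cfap298) to 5.19 (Zbbx).

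Foxj1, Spag16 and Zbbx were near 0 outside the brain tissues. They passed the filter for the test only through the brain libraries, so their p-values are descriptions. Foxj1 (chromosome 11, 116,330,704 to 116,335,399, minus strand, GRCm38), the forkhead transcription factor that switches on the genes of motile cilia, had splice junction values of 88.8, 49.5, 25.7 and 54.7 in the brain tissues, of 0, 1.34 and 3.48 in the organs and of 3.20 in the library labelled testis. Its lncRNA values were 19.6, 9.19, 5.61 and 5.53 in the brain tissues and 0 elsewhere. The groups did not overlap in the splice junction design. In lncRNA capture a 0 in heart allows up to 14.3 units, above the values of cerebellum, cortex and olfactory bulb. Separation is not shown there. Foxj1 was higher in brain by a log2 difference of 3.91 ± 0.51 (SE, limma adjusted p = 0.00118). Spag16, a protein of the central apparatus, was detected in the splice junction design only, with 329, 252, 54.3 and 151 in the brain tissues, 0, 0 and 0.870 in the organs and 2.13 in the library labelled testis. It was at 0 in all 8 lncRNA libraries. Its log2 difference was 3.52 ± 0.42 (SE, adjusted p = 0.000849), and its lowest brain value, that of cortex, was far above the highest value elsewhere. Zbbx, which encodes a protein with a zinc finger B-box domain, had the largest difference of all 45 genes (5.19 ± 0.81 SE, adjusted p = 0.00269). Its splice junction values were 713, 133, 241 and 1522 in the brain tissues, 0, 0.668 and 0 in the organs and 0.533 in the library labelled testis. In the lncRNA libraries Zbbx had 5.87, 0, 1.40 and 9.67 in the brain tissues and 0 elsewhere. Olfactory bulb was the highest tissue for Zbbx and whole brain for Foxj1 and Spag16.

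Tmem212, which encodes a transmembrane protein, was the exception among the 4. Its splice junction values were 239, 102, 26.4 and 8.91 in the brain tissues, 0, 2.67 and 7.83 in the organs and 102 in the library labelled testis, and its lncRNA values were 1.96, 2.63, 0 and 0 in the brain tissues and 0 elsewhere. The splice junction value in the library labelled testis was as high as that of cerebellum, and olfactory bulb was close to liver. The log2 difference between brain and the organs did not pass the threshold (2.43 ± 0.83 SE, adjusted p = 0.0572), but with the splice junction libraries alone it did (4.00, adjusted p = 0.0455).

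**Figure D3:**
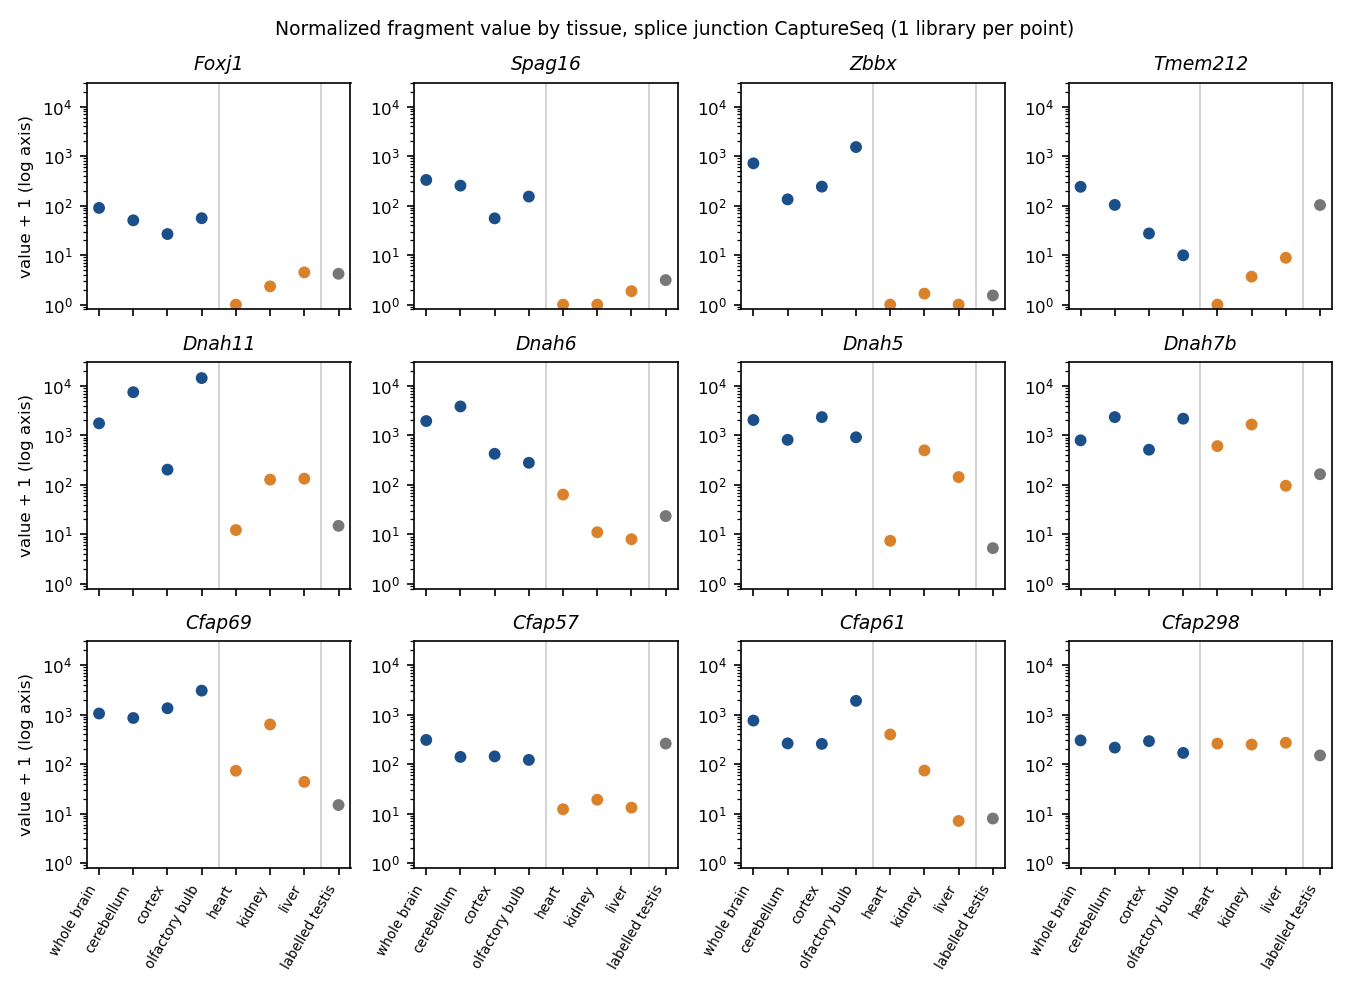
Value + 1 in each splice junction library (log axis) for 12 motile cilia genes, with brain tissues in blue, heart, kidney and liver in orange and the library labelled testis in grey. Foxj1, Spag16 and Zbbx sit at or below 3.48 in every organ, Dnah7b overlaps between brain and kidney, Tmem212 and Cfap57 are high in the library labelled testis, and Cfap298 is nearly level.

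RFX factors bind a motif called the X-box and act with Foxj1 on genes of motile cilia. The RefSeq promoter table (GRCm38.p6, 250 bases before to 50 bases after each start) held 43 of the 52 genes. The X-box motif (GTNNCC, 3 further bases of any kind and GNAAC), searched on both strands, was found in 7 of the 43 (16.3%) and in 2.49% of all 27,025 genes of the table. The forkhead core GTAAACA, also searched on both strands, was found in 3 of the 43 (Cfap20, Cfap43 and Dnah17) and in 4.05% of all genes. The 7 genes with the X-box were Cfap206, Cfap44, Cfap45, Spag16, Cfap61, Cfap298 and Dnah17. The first 4 of these were higher in brain, as were 22 of all 43 genes, which is a similar share. A link between the motif and the brain level was not tested. The promoters of these 4 genes, which were called and hold the motif, are shown. Each is given as the 250 bases before the start, 5′ to 3′ on the strand of the gene, with the X-box match in capitals. The coordinates are chr4:34730207-34730456 for Cfap206 (minus strand), chr16:44394549-44394798 for Cfap44 (plus strand), chr1:172520880-172521129 for Cfap45 (plus strand) and chr1:69826720-69826969 for Spag16 (plus strand).
Cfap206: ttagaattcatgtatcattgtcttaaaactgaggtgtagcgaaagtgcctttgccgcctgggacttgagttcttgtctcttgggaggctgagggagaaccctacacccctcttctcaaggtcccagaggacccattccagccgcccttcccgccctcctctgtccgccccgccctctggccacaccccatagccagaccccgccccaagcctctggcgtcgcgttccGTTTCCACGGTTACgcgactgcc
Cfap44: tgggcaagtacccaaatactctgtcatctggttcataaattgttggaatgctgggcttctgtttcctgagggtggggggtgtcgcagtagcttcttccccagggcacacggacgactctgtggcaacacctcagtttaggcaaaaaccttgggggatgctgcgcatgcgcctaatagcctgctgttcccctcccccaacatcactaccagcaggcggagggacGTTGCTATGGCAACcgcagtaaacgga
Cfap45: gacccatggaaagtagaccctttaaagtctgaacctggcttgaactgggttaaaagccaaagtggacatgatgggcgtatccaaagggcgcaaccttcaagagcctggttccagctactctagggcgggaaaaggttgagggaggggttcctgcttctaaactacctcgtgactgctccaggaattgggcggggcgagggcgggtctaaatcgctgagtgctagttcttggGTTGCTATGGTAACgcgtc
Spag16: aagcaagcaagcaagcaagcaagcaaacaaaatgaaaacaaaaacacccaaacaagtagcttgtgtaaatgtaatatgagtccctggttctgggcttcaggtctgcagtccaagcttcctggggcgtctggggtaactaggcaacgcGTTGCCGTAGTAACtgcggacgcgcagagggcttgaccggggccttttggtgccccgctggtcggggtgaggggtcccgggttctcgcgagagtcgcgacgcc
The match began 23 bases before the start in Cfap206, 27 in Cfap44, 19 in Cfap45 and 103 in Spag16. A match is a stretch of letters and not a measured binding site.

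Cfap206, which lies at the base of a radial spoke, had splice junction values of 332, 183, 114 and 72.5 in the brain tissues, 1.60, 2.86 and 4.35 in the organs and 1.60 in the library labelled testis, with a log2 difference of 2.66 ± 0.39 (SE, adjusted p = 0.00222). Among the factors on a list of ciliogenesis regulators, 7 of 11 tested were higher in brain and 0 lower. Of all genes tested, 21.2% were higher and 12.0% lower. Rfx4 (4.17), Jazf1 (3.81), Rfx3 (3.75) and Fank1 (3.44) had the largest log2 differences. Rfx3, which acts on motile and primary cilia, had splice junction values of 724, 471, 611 and 606 in the brain tissues, 28.9, 49.5 and 26.1 in the organs and 30.9 in the library labelled testis. Rfx2, another RFX factor, did not pass the threshold (-0.43 ± 0.43 SE, adjusted p = 0.477) and had 222, 211, 108 and 230.4 in brain, 212, 203 and 93.1 in the organs and 445 in the library labelled testis.

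Of the 15 heavy chains, 8 were higher in brain (Dnah1, Dnah5, Dnah6, Dnah7a, Dnah9, Dnah10, Dnah11 and Dnah14), 0 were lower, and all 15 log2 differences were positive, with a median of 2.30. Beside these counts, 21.2% of all genes tested were called higher and 12.0% lower. Dnah7a had passed the filter only through the brain libraries. The chains of the outer arms, which provide most of the force of the beat, differed widely among brain tissues. Dnah5 had splice junction values of 2039, 811, 2333 and 911 in the brain tissues, 6.42, 497 and 143 in the organs and 4.27 in the library labelled testis, and lncRNA values of 19.6, 0, 11.2 and 5.53 in brain, 0, 1.69 and 0 in the organs and 0 in the library labelled testis (log2 difference 3.14 ± 1.01 SE, adjusted p = 0.047). With splice junction capture it was highest in cortex, and all brain tissues lay above kidney, the highest organ. Its call was lost with either design alone (limma, adjusted p = 0.0577 with splice junction capture and 0.184 with lncRNA capture). Dnah9 had 1632, 608, 885 and 304 in the brain tissues, 20.9, 465 and 20.01 in the organs and 16.00 in the library labelled testis, and with lncRNA capture 58.7, 19.7, 28.1 and 6.91 in brain, 0, 5.07 and 0 in the organs and 0 in the library labelled testis (log2 difference 3.63 ± 1.00 SE, adjusted p = 0.0282). Kidney lay above olfactory bulb, so the groups overlapped in the splice junction design, with which alone the call was lost (limma, adjusted p = 0.0572). Dnah11 had the highest single value of the heavy chains. Its splice junction values were 1745, 7435, 202 and 14,349 in the brain tissues, 11.2, 126 and 132 in the organs and 13.9 in the library labelled testis, and with lncRNA capture 9.78, 55.1, 4.21 and 71.9 in brain, 0, 0 and 7.72 in the organs and 6.84 in the library labelled testis (log2 difference 4.40 ± 1.30 SE, adjusted p = 0.0351). Cortex held 1.41% of the value of olfactory bulb, whole brain 12.2% and cerebellum 51.8%. Dnah8 and Dnah17, outer arm chains best known from the sperm tail, did not pass the threshold. Dnah8 had 118, 104, 129 and 798 in the brain tissues, 221, 45.5 and 72.2 in the organs and 40.5 in the library labelled testis, and with lncRNA capture 0, 0, 2.81 and 4.15 in brain and 0 elsewhere (log2 difference 1.07 ± 0.70 SE, adjusted p = 0.274). Dnah17 had 25.5, 54.8, 37.9 and 293 in brain, 43.3, 115 and 6.96 in the organs and 50.7 in the library labelled testis, and with lncRNA capture 7.83, 1.31, 5.61 and 8.29 in brain, 0, 3.38 and 0 in the organs and 0 in the library labelled testis (1.38 ± 0.81 SE, adjusted p = 0.223). Both were highest in olfactory bulb, and in the splice junction design heart or kidney exceeded the other 3 brain tissues in both.

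The chains of the inner arms shape the bend of the cilium. Dnah6 had splice junction values of 1942, 3830.4, 423 and 278 in the brain tissues, 62.6, 10.03 and 6.96 in the organs and 22.4 in the library labelled testis, and lncRNA values of 133, 93.2, 12.6 and 4.15 in brain, 9.54, 6.76 and 0 in the organs and 3.42 in the library labelled testis (log2 difference 4.30 ± 1.18 SE, adjusted p = 0.0273). With splice junction capture cerebellum was the highest tissue, and the brain tissues lay above the organs. With lncRNA capture whole brain was the highest, and olfactory bulb lay below heart and kidney. Dnah1 had 476, 137, 432 and 263 in brain, 17.6, 12.7 and 27.8 in the organs and 21.9 in the library labelled testis, with 5.87, 1.31, 9.82 and 8.29 in the lncRNA libraries of the brain tissues and 0 in those of the other tissues (3.29 ± 0.53 SE, adjusted p = 0.00311). Dnah10 had 322, 267, 202 and 164 in brain, 9.62, 129 and 22.6 in the organs and 150.4 in the library labelled testis, and with lncRNA capture 15.7, 26.3, 7.02 and 24.9 in brain, 9.54, 15.2 and 5.15 in the organs and 22.8 in the library labelled testis (1.82 ± 0.60 SE, adjusted p = 0.0499). Both were separate between brain and organs in the splice junction design, although the library labelled testis was near the lowest brain value of Dnah10. Dnah14 was captured mainly by the lncRNA probes, with 315, 519, 363 and 417 in brain, 310.1, 336 and 252 in the organs and 383 in the library labelled testis, and had 42.8, 56.4, 76.6 and 44.9 in brain, 6.42, 18.05 and 9.57 in the organs and 16.00 in the library labelled testis in the splice junction libraries (1.34 ± 0.37 SE, adjusted p = 0.0275). Its lncRNA values overlapped between brain and organs, and its splice junction values did not.

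Dnah2, Dnah3 and Dnah12 did not pass the threshold. Dnah2 had 253, 163, 154 and 646 in the brain tissues, 60.95, 69.5 and 37.4 in the organs and 37.3 in the library labelled testis, and with lncRNA capture 143, 19.7, 29.5 and 96.7 in brain, 14.3, 30.4 and 0 in the organs and 2.28 in the library labelled testis (log2 difference 2.50 ± 0.84 SE, adjusted p = 0.0547). Dnah3 had 363, 258, 133 and 61.5 in brain, 30.5, 142 and 6.09 in the organs and 89.6 in the library labelled testis, and with lncRNA capture 0, 1.31, 2.81 and 0 in brain and 0 elsewhere (1.59 ± 0.64 SE, adjusted p = 0.09). Dnah12 had 529.5, 378, 208 and 93.9 in brain, 139.6, 277 and 23.5 in the organs and 41.6 in the library labelled testis, and with lncRNA capture 5.87, 0, 0 and 0 in brain, 0, 3.38 and 0 in the organs and 0 in the library labelled testis (0.67 ± 0.83 SE, adjusted p = 0.565, 95% interval -1.27 to 2.60). The brain and organ values of Dnah2 were separate in the splice junction design, whereas those of Dnah3 and Dnah12 overlapped through kidney, and those of Dnah12 through heart as well.

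Mouse has 3 copies of the inner arm gene Dnah7, all on chromosome 1. Of the 100-base windows of each copy, 12.2% to 17.2% also occur in each other copy, so reads from these windows cannot be placed with certainty. Dnah7a had 169, 65.9, 98.5 and 117 in the brain tissues, 19.2, 2.01 and 0 in the organs and 1.60 in the library labelled testis, and with lncRNA capture 0, 0, 1.40 and 8.29 in brain and 0 elsewhere (log2 difference 2.95 ± 0.66 SE, adjusted p = 0.0128). Dnah7b had 791, 2334, 511 and 2169 in brain, 605, 1653 and 94.8 in the organs and 163 in the library labelled testis, and with lncRNA capture 23.5, 23.6, 5.61 and 24.9 in brain, 0, 18.6 and 0 in the organs and 3.42 in the library labelled testis (2.06 ± 1.00 SE, adjusted p = 0.15). Dnah7c had 183, 212, 315 and 198 in brain, 30.5, 136 and 3.48 in the organs and 3.20 in the library labelled testis, and with lncRNA capture 1.96, 2.63, 9.82 and 1.38 in brain, 0, 1.69 and 0 in the organs and 1.14 in the library labelled testis (2.30 ± 0.76 SE, adjusted p = 0.0515). In the splice junction design, Dnah7b had the highest organ value of the heavy chains: its kidney value exceeded those of whole brain and cortex, and its heart value exceeded that of cortex. Dnah7a and Dnah7c were, in the same design, higher in all 4 brain tissues than in all 3 organs. Only Dnah7a passed the threshold, but it had passed the filter only through the brain libraries. Its p-value is a description and does not set it apart from the other copies.

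Per kilobase of assembled transcript, the heavy chains of whole brain in the splice junction design were led by Dnah6 (173 units per kb), Dnah11 (159), Dnah5 (132) and Dnah9 (122), and Dnah17 was the lowest (1.80). The highest of all motile cilia genes in whole brain on this scale were Cfap61 (367), Cfap69 (345) and Tmem212 (334). The probes still play a part in these values, so the order is one of captured RNA per length and not of RNA levels in the tissue, and with 1 library its neighbors cannot be tested.

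The intermediate chains Dnaic1 and Dnaic2 sit at the base of the outer arm. Dnaic1 had 412, 248, 200.4 and 381 in the brain tissues, 164, 14.04 and 2.61 in the organs and 4.27 in the library labelled testis, and with lncRNA capture 5.87, 5.25, 5.61 and 0 in brain, 4.77, 0 and 0 in the organs and 0 in the library labelled testis. Heart, the highest organ, lay below cortex, and the log2 difference did not pass the threshold (2.52 ± 0.92 SE, adjusted p = 0.0693). Dnaic2 had 1025, 1133, 326 and 582 in brain, 53.9, 39.99 and 7.90 in the organs and 114 in the library labelled testis, and with lncRNA capture 7.99, 10.5, 0 and 2.76 in brain and 0 elsewhere, with a log2 difference of 3.41 ± 0.71 (SE, adjusted p = 0.00955). This value is uncertain. Between 97.6% and 100% of the splice junction value of Dnaic2 in each tissue lay in 3 assembled models that begin 51,977 nt upstream and join Dnaic2 to its neighbor Ttyh2. Without transcripts that overlap several genes, Dnaic2 was under the mean value needed for a test.

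Of the 31 Cfap genes, 24 were tested, 13 of these were higher in brain, and 0 were lower. Beside these counts, 21.2% of all genes tested were called higher and 12.0% lower. Among the 13, Cfap44, Cfap46, Cfap99, Cfap100, Cfap161 and Cfap206 had passed the filter only through the brain libraries. The 6 Cfap genes with the largest positive differences include several proteins of the central apparatus. Cfap74 had splice junction values of 469, 1371, 662 and 687 in the brain tissues, 73.8, 24.1 and 19.1 in the organs and 23.99 in the library labelled testis, and lncRNA values of 1250.3, 1352, 935 and 654 in brain, 219, 112 and 41.2 in the organs and 75.2 in the library labelled testis (log2 difference 3.88 ± 0.56 SE, adjusted p = 0.00201). It is 1 of the few motile cilia genes with high values in both designs, and brain lay above the organs in both. Cfap46, also of the central apparatus, was nearly level over the brain tissues, with 221, 209, 203 and 182 in brain, 9.62, 5.35 and 0.870 in the organs and 17.1 in the library labelled testis in the splice junction libraries and 3.91, 1.31, 4.21 and 1.38 in brain and 0 elsewhere in the lncRNA libraries (3.57 ± 0.43 SE, adjusted p = 0.000887). Cfap69, a central apparatus protein that is also known from olfactory neurons, was highest in olfactory bulb, with 1048, 851, 1339.5 and 3043 in brain, 72.2, 629 and 42.6 in the organs and 13.9 in the library labelled testis, and with lncRNA capture 27.4, 18.4, 18.2 and 44.2 in brain, 0, 11.8 and 0 in the organs and 0 in the library labelled testis (3.47 ± 0.92 SE, adjusted p = 0.0242). Kidney stood close to the brain values of Cfap69, and heart and liver did not.

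Cfap44, which tethers inner arm dynein to the doublet, had 340.0, 327, 205 and 454 in the brain tissues, 0, 44.1 and 4.35 in the organs and 2.13 in the library labelled testis, and with lncRNA capture 5.87, 7.88, 0 and 0 in brain and 0 elsewhere (log2 difference 3.58 ± 0.76 SE, adjusted p = 0.0103). Cfap57, an adaptor of inner arms, had 306, 138, 142 and 120.3 in brain, 11.2, 18.05 and 12.2 in the organs and 259 in the library labelled testis, and with lncRNA capture 58.7, 28.9, 12.6 and 5.53 in brain, 0, 1.69 and 2.57 in the organs and 45.6 in the library labelled testis (3.37 ± 0.60 SE, adjusted p = 0.00486). It differs from most of the group in that the library labelled testis lay among the brain tissues. Cfap99 had 76.97, 122, 49.8 and 54.7 in the brain tissues, 0 in the organs and 2.13 in the library labelled testis, and with lncRNA capture 0, 0, 0 and 2.76 in brain and 0 elsewhere (3.33 ± 0.37 SE, adjusted p = 0.000629). Against 3 fragments in each organ library, its mean brain value in the splice junction design was at least 24.1-fold higher.

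A few Cfap genes did not follow the others. Cfap298, which is needed to assemble dynein arms in the cytoplasm, had splice junction values of 299, 214, 289 and 167 in the brain tissues, 258, 247 and 269 in the organs and 148 in the library labelled testis, and lncRNA values of 5297, 1993, 2982 and 1662 in brain, 6592, 4390.1 and 4686 in the organs and 2212 in the library labelled testis (log2 difference -0.53 ± 0.41 SE, adjusted p = 0.35, 95% interval -1.49 to 0.43). Brain and organs overlapped in both designs. Cfap126 had the only other negative difference (-0.15 ± 0.51 SE, adjusted p = 0.835), with 23.1, 21.9, 5.21 and 13.4 in brain, 19.2, 45.5 and 16.5 in the organs and 14.9 in the library labelled testis in the splice junction libraries and 0, 2.63, 0 and 0 in brain and 0 elsewhere in the lncRNA libraries. Kidney was its highest tissue in the splice junction design. Cfap36 had 26.04, 26.8, 30.5 and 25.1 in brain, 3.21, 14.04 and 4.35 in the organs and 5.33 in the library labelled testis in the splice junction libraries and far higher lncRNA values of 19,436, 11840.1, 14,598 and 13,262 in brain, 7546, 12,106 and 3564 in the organs and 2479 in the library labelled testis (1.54 ± 0.46 SE, adjusted p = 0.037). Cfap45, found on the inner face of the doublets, had 186, 65.2, 109.7 and 48.99 in brain, 20.9, 10.03 and 6.09 in the organs and 51.2 in the library labelled testis, and with lncRNA capture 315, 17.1, 375 and 225 in brain, 66.8, 21.97 and 33.5 in the organs and 307 in the library labelled testis (2.45 ± 0.74 SE, adjusted p = 0.0386), so that cerebellum lay above the organs with splice junction capture and below them with lncRNA capture. The remaining called genes were Cfap54 (2.78), Cfap206 (2.66), Cfap161 (2.60), Cfap65 (2.40) and Cfap100 (1.76). The 9 others that were tested and not called had log2 differences of 0.51 (Cfap97) to 2.49 (Cfap61).

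The 7 genes below a mean value of 10, all Cfap genes, have no test. In the splice junction libraries, Cfap221 had 95.8, 26.8, 21.9 and 12.1 in the brain tissues and at most 0.668 in an organ, Cfap299 had 63.7, 26.8, 29.01 and 10.9 and at most 1.74, and Cfap58 had 46.01, 12.7, 27.5 and 31.6 and at most 4.81. Cfap73, Cfap77 and Cfap97d2 had brain values of 3.24 to 39.9, and the lowest of these, that of Cfap73 in olfactory bulb, was under the 4.81 units that a 0 in heart allows. Cfap97d1 stayed at or below 1.12 in every library.

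The brain tissues did not order the genes alike. Whole brain was the highest brain tissue for 28 of the 52 genes, olfactory bulb for 10, cerebellum for 9 and cortex for 5 (splice junction design). The summed value was 21,944 in whole brain, 24,883 in cerebellum, 13,498 in cortex and 32,483 in olfactory bulb, against 2691 in heart, 5688 in kidney, 1426 in liver and 1867 in the library labelled testis. Dnah11 gave 14,349 of the sum of olfactory bulb and 7435 of that of cerebellum. Without Dnah11, whole brain had the highest sum (20,198), followed by olfactory bulb (18,135), cerebellum (17,448) and cortex (13,296). Kidney was the highest organ for 23 genes, heart for 13 and liver for 12, and 4 genes were at 0 in all organs. Heart was highest among the organs for Dnaic1, Dnah8 and Cfap61, among others, and 35 genes had at least 10 fragments in kidney, 26 in heart and 24 in liver. With 1 library per tissue and design, differences between single tissues have no test.

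Of the 45 genes tested, 13 were higher in brain than in the library labelled testis and 0 were lower, where 10.3% and 6.11% of all genes were called (limma, 4 tissues against 1, which is taken to vary like the others). They were Dnah1, Dnah5, Foxj1, Spag16, Zbbx, Cfap44, Cfap46, Cfap54, Cfap65, Cfap69, Cfap74, Cfap99 and Cfap206. The largest log2 differences were those of Cfap69 (5.63 ± 1.35 SE, adjusted p = 0.0283), Cfap54 (5.41 ± 0.88 SE, adjusted p = 0.00612) and Dnah5 (5.35 ± 1.48 SE, adjusted p = 0.0462). The median was 2.45, beside 0.09 for all genes. Foxj1, Spag16, Zbbx, Cfap44, Cfap46, Cfap99 and Cfap206 had passed the filter only through the brain libraries and had to differ. The count fell to 7 without whole brain and to 7 without cortex. In the splice junction libraries all 4 brain tissues lay above the library labelled testis for 40 of the 52 genes, untested ones included. The share over all genes tested was 34.5%. Among the 12 exceptions, Cfap57 and Tmem212 had 259 and 102 in that library.

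Between the library labelled testis and the organs, 0 of the 45 genes were called in either direction, and 2 had an unadjusted p under 0.05, while 1.72% of all genes were called higher and 0.114% lower. The median log2 difference was −0.06, with a range of −2.63 to 4.31. Cfap57 had the largest (4.31 ± 0.90 SE, adjusted p = 0.0697), and was called with the splice junction libraries alone (log2 difference 4.16 ± 0.61, SE, adjusted p = 0.026) and with fragments scaled to the total outside the spike-ins (2.67 ± 0.53, adjusted p = 0.0369). Both comparisons with this library share samples with the comparison of brain and organs.

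Other genes of the axoneme were followed through lists by function, drawn up with earlier results of these data known. Beside the counts here and in the next paragraph, 21.2% of all genes tested were called higher and 12.0% lower. Among docking factors and light chains of the dynein arms, 6 of 11 tested were higher in brain, 0 were lower, and the median log2 difference was 2.48. Dnal1, an outer arm light chain, had 1313, 697, 1384 and 1316 in the brain tissues and 165, 102 and 15.7 in the organs (4.71 ± 0.68 SE, adjusted p = 0.00193), and Armc4, which docks outer arms, had 260.4, 253, 155 and 86.2 and 4.81, 1.34 and 0 (3.33 ± 0.48 SE, adjusted p = 0.00193). Wdr78 (2.76) and Dynlrb2 (2.67) followed. Of 6 radial spoke genes tested, 4 were higher and 0 lower, led by Rsph10b (4.05 ± 0.40 SE, adjusted p = 0.000337) and Rsph4a (3.31 ± 0.69 SE, adjusted p = 0.00945), with Dnajb13 (2.40) and Rsph1 (2.05). For the nexin-dynein regulatory complex and the ruler that sets the repeat of the axoneme, 5 of 7 were higher and 0 lower, with Drc7 (4.77), Ccdc39 (4.03), Drc1 (3.45) and Tcte1 (3.41).

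For the central apparatus, 5 of 7 genes were higher and 0 lower, and the median log2 difference was 3.32. Spag6l had the largest difference (5.57 ± 1.11 SE, adjusted p = 0.00778), with 593, 204, 539 and 363 in the brain tissues and 0, 82.2 and 0 in the organs, followed by Hydin (5.13), Spag6 (3.95) and Spef2 (3.16). Of tektins and other proteins inside the doublets, 9 of 12 were higher and 0 lower, led by Tekt1 (4.04 ± 0.62 SE, adjusted p = 0.00262), which was at 0 in every organ library, with Tekt5 (3.70) and Pifo (3.56). Of the cytoplasmic assembly factors, 2 of 12 were higher, 1 was lower and the median was 0.30. Lrrc6 (3.81 ± 0.76 SE, adjusted p = 0.00802) and Spag1 (2.99 ± 0.56 SE, adjusted p = 0.00586) were higher, and Dnaaf5 was lower (-1.15 ± 0.32 SE, adjusted p = 0.0292). Intraflagellar transport and BBSome genes, which serve primary cilia too, gave 9 of 27 higher and 0 lower with a median of 1.57, led by Kif17 (5.05), a neuronal transport motor, Kif3a (3.46), Bbs1 (3.09) and Wdr60 (2.86).

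**Figure D4:**
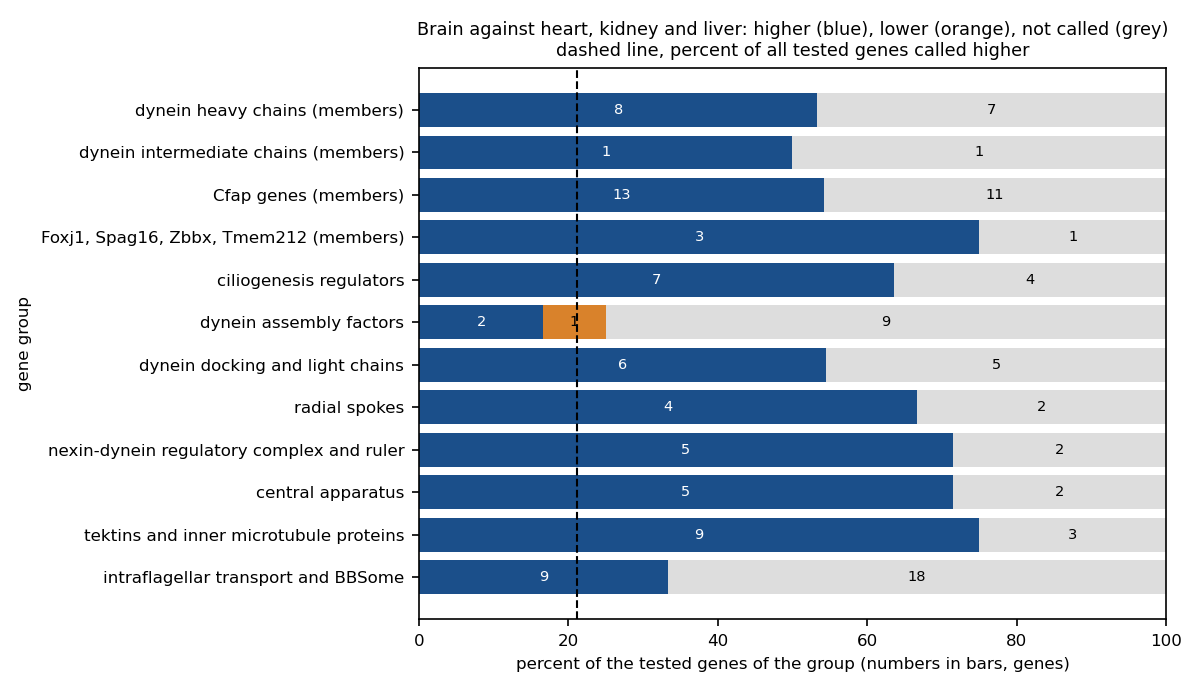
Percent of the tested genes of each group that were called higher (blue), lower (orange) or not called (grey) in brain against heart, kidney and liver, with the number of genes in the bars and the 21.2% of all genes called higher as a dashed line. The classes of motile cilia genes and the axonemal lists lie to the right of the line, and the assembly factors, with 2 of 12, lie to the left of it.

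Markers of other cell types were followed in the same libraries. Beside their counts, 21.2% of all genes tested were called higher in brain than in the organs and 12.0% lower. Of 13 ependymal markers, 8 were higher in brain than in the organs, 1 was lower (Tm4sf1, -1.73 ± 0.51 SE, adjusted p = 0.0351), and the summed value was 1674 to 4812 in the brain tissues and 2729 to 15,135 in the organs, most of it from Rarres2, Tm4sf1 and Pltp. Nnat (5.45), Hydin, Tekt1 and Pifo had the largest differences, and 6 of the list (Ak7, Dynlrb2, Hydin, Pifo, Rsph1 and Tekt1) are also on the axoneme lists. Ccdc153 was at 0 in every organ in the splice junction design, against 187, 99.3, 23.8 and 6.48 in the brain tissues. Of 6 choroid plexus markers tested, Slc13a4 was higher (3.54 ± 0.75 SE, adjusted p = 0.0103) and Aqp1 lower (-5.36 ± 1.05 SE, adjusted p = 0.00737), and the summed value was 690 in cortex, 1948 in olfactory bulb, 5091 in whole brain and 6226 in cerebellum, with 42,340 in kidney. The markers Clic6, Kcne2 and Otx2 were at or below 22.2 in every splice junction library. All 7 neuron markers tested were higher, led by Gad1 (9.26), Snap25 (9.22), Syt1 (9.20) and Rbfox3 (8.84). Only 4 of the 15 germ cell markers were tested, and of these Dazl (2.43 ± 0.76 SE, limma adjusted p = 0.0422) and Ddx4 (2.23 ± 0.51 SE, adjusted p = 0.0139) were higher. Of 5 Sertoli and Leydig markers tested, Cyp11a1 was higher (6.64 ± 0.43 SE, limma adjusted p = 6.23e-05). Of 8 keratinocyte markers tested, 5 were lower, led by Krt14 (-7.28), Krt5 (-6.20), Dsg3 (-4.70) and Krtdap (-4.18). The part of ependymal, choroid plexus and neuronal RNA in the brain values of the motile cilia genes was not tested.

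The 10 genes outside the group whose log2 profile over the 8 tissues was most like that of Foxj1 were Hepacam, Mag, Nefh, Gprasp2, Nmnat2, Slc25a18, Neto2, Gng13, Syndig1l and Bcan. The smaller of their Pearson correlations in the 2 designs was 0.960 (Bcan) to 0.975 (Hepacam). Within the group, Cfap46 (0.863), Cfap74 (0.842), Dnaic2 (0.839) and Dnah1 (0.836) came closest, behind many genes that are no part of it: Cfap46 held rank 951. The profile of Dnaic2 is mostly that of models joined to Ttyh2. In the splice junction libraries alone, Spag16 had a correlation of 0.980, Cfap206 of 0.955, Cfap99 of 0.954 and Zbbx of 0.943. The points are 8 tissues, which share 2 hybridization pools (brain and nonbrain) in each design.

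The assembly holds 307 transcripts for the 52 genes. It was built around the GENCODE M4 annotation and includes all of it, so annotated models are present whether or not reads support them. Of the 307 transcripts, 152 have an intron chain of GENCODE M21, 153 are spliced in another way and 2 have a single exon. A chain of M4 that is absent from M21 would count among the 153. For 45 genes there was at least 1 spliced transcript outside the annotation. For 23, more of the summed value lay outside the annotated transcripts than in them. For 9, a model had more exons than any annotated one, among them Dnaic2 through its models joined to Ttyh2 (26 exons against 13). The division of reads among transcripts of a gene is an estimate by the authors' software. For every heavy chain but Dnah14 the longest model had at least as many exons as the longest annotated one, with 79 exons for Dnah5, 85 for Dnah11 (82 in GENCODE) and 93 for Dnah8. Where M4 already held a model of that length, this result was fixed in advance and says nothing about the reads. Dnah14 had at most 13 exons of the 84 annotated, and its assembled models all began at least 74,439 nt inside the gene. For Dnah5, nearly all of the splice junction value in every tissue lay in 2 models that begin at chr15:28154959, which is 48,793 nt upstream of the annotated start.

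Tissues often differed in the models that held the value. Among tissues with at least 10 fragments of a gene in the splice junction design, the start with the largest share of the value was not the same in all tissues for 18 of the 52 genes, and among the brain tissues alone for 6. Dnah11, for instance, had 89.8% of its value in whole brain in models from the annotated start, and 75.6% of its low kidney value in a model that begins 71,856 nt downstream. The 3 genes described next were chosen after their values were seen. Dnah6 (chromosome 6, 73,017,606 to 73,221,651, minus strand) had 82.5% of its value in whole brain in models of 76 and 77 exons that begin at the annotated start, against 32.6% in cerebellum. The other 67.4% in cerebellum lay in 4 models that begin 82,646 nt downstream and have 22 to 48 exons, and heart was similar (86.3%). Cfap61 (chromosome 2, 145,934,784 to 146,215,039, plus strand) had 98.2% of its cerebellum value in models that begin 14 nt upstream of the annotated start. In olfactory bulb 67.6% lay in a model of 5 exons that begins 206,935 nt downstream, and in heart 86.2% lay in a model of 27 exons that begins 2492 nt downstream. Tmem212 (chromosome 3, 27,866,066 to 27,896,368, minus strand) had nearly all of its value in whole brain and cerebellum in the annotated model, whereas 95.2% of the value in the library labelled testis, and nearly all of the low values in kidney and liver, lay in a model that begins 9670 nt downstream. Kidney and liver had only 4 and 9 fragments of Tmem212, under the minimum of 10 used above. Without replicates of a tissue, these shares have no test.

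**Figure D5:**
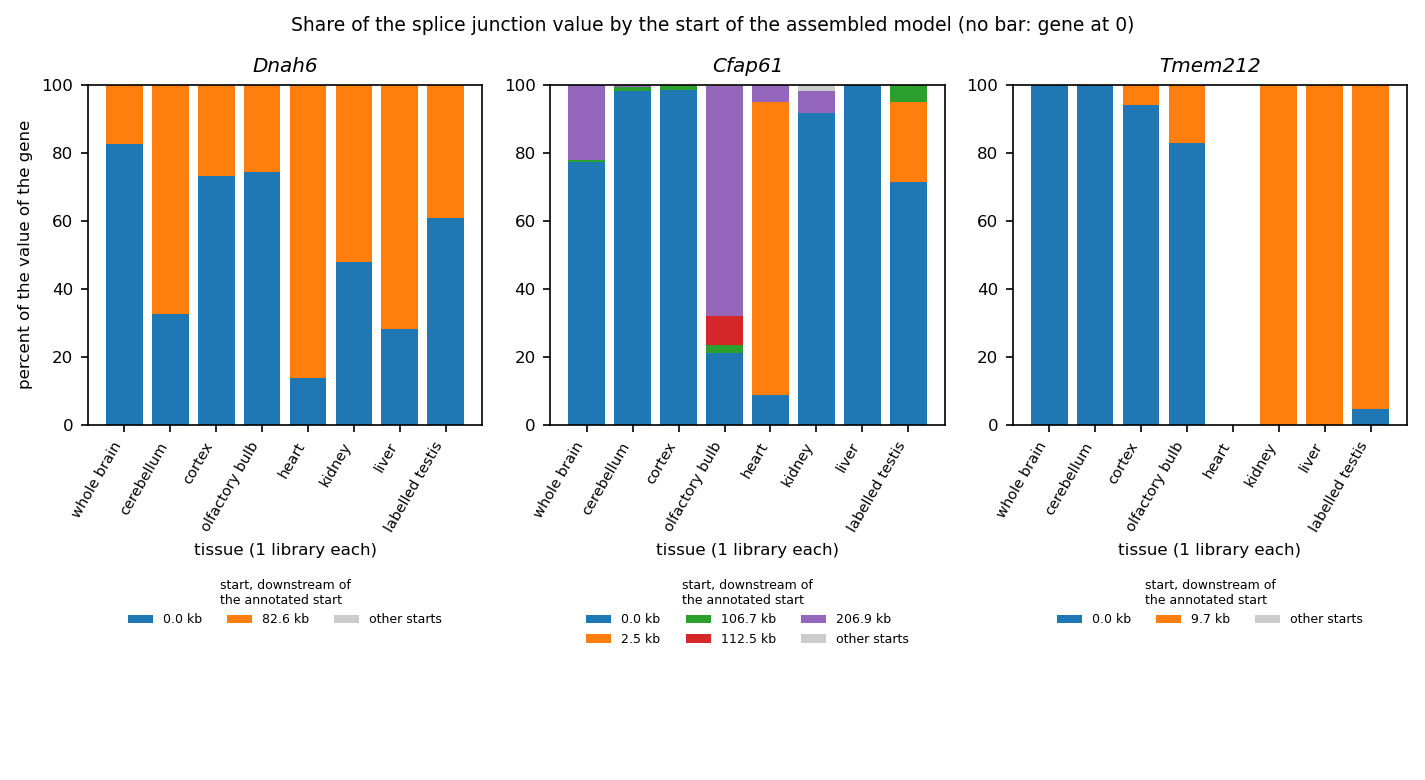
Share of the splice junction value of Dnah6, Cfap61 and Tmem212 in each tissue by the start of the assembled model, as its distance downstream of the annotated start. Models from the annotated start hold most of the value in whole brain for all 3 genes, and models from other starts hold most of it in cerebellum for Dnah6, in olfactory bulb and heart for Cfap61 and in kidney, liver and the library labelled testis for Tmem212. Kidney and liver had only 4 and 9 fragments of Tmem212.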

How the data were processed

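Per the labels and the study's Methods, the authors mapped the paired reads to GRCm38 (TopHat2), built transcripts per library around the GENCODE M4 models (Cufflinks 2.2.1), merged them into 1 assembly and had Cuffnorm 2.2.1 quantify it. What they deposited is a signal, the estimated fragments of each transcript times 1 factor per library. These values are not counts, so no count test was used.

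Each assembled transcript was given to the GENCODE M21 gene with the largest exonic overlap on the same strand (bedtools 2.31.1), which placed 118,423 of 137,653 transcripts. Values were summed per gene. In each library, low gene sums (at most 20 steps) fell within 0.1 of a whole number of steps (100%), 1 step being 1 fragment, which gave about 8,930,240 to 43,889,300 fragments per library. Intervals and floors cover counting error only.

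Log2(value + 1), averaged over the designs of a tissue, was fitted for 19,352 genes with a mean value of at least 10 with limma 3.58.1 in R 4.3.3, in 1 model with brain (n = 4), organs (n = 3) and the tissue labelled testis (n = 1). Genes with a p under 0.05 after Benjamini-Hochberg adjustment were called. For the designs, tissue was a factor. Log2 differences of genes at 0 in a group depend on the pseudocount. The steps were tested on simulated data. Python 3.11.15, NumPy 2.4.6 and pandas 2.3.3 were used. Alternatives were other pseudocounts, no filter, other scalings, each design alone, transcripts of 1 gene only, another variance model, the labelled testis counted among the organs, leaving out each tissue and, chosen after seeing the data, the ERCC mix as a covariate.

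Genes named with values in every library are the heavy and intermediate chains, the single genes, the 6 Cfap genes with the largest positive and up to 4 with the largest negative difference of brain and organs (2 were negative), and the 4 highest in the tissue labelled testis. Of other lists, up to 4 called genes with the largest differences are named, and others were chosen after their values were seen. One gene that this rule would name is not reported here. The members and lists were chosen with earlier results of these data known. The lists cover regulators, assembly factors, docking factors and light chains, radial spokes, the nexin-dynein complex, the central apparatus, doublet proteins, intraflagellar transport, and markers of ependyma, choroid plexus, male germ cells, Sertoli and Leydig cells, epididymis, keratinocytes and neurons.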

Additional observations from a re-analysis of the deposited data

Results flagged for a closer look

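The 4 brain tissues were tested for a single tissue far from the others (Dixon's test on the mean log2 values) in the 45 motile cilia genes, where chance flags about 1 gene in 20. Cfap300 was the only gene flagged, with a gap over range of 0.860 because whole brain lay above the rest. A single flag among 45 genes is no more than chance gives. Its mean log2 value was 5.91 in whole brain, 5.00 in cerebellum, 5.07 in cortex and 5.13 in olfactory bulb. Cfap300, which takes part in the assembly of dynein arms, had splice junction values of 282, 135, 216 and 154 in these tissues, 32.1, 130.3 and 13.1 in the organs and 157 in the library labelled testis. In these values cortex lay between whole brain and olfactory bulb. The lncRNA values that enter the mean were 11.7, 6.56, 4.21 and 6.91 in the brain tissues, from only 6, 5, 3 and 5 fragments.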

How the results depend on the processing

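No paired analysis was possible because the labels give each tissue a single library of each design, so that no number pairs brain tissues with organs. The designs were compared within tissues. For brain against the organs, 25 motile cilia genes were called higher, 8 with lncRNA capture alone and 15 to 27 when 1 tissue was left out (16 without whole brain, 15 without liver), and 17 to 33 under the other alternatives. None was called lower. Of all genes, 4099 were called higher, and 3079 to 4378 with 1 tissue left out. Those called lower were 2316, 1348 with fragments scaled to the total outside the spike-ins, 1264 with lncRNA capture alone, and 1346 to 2905 with 1 tissue left out. For brain against the tissue labelled testis, 13 motile cilia genes were higher and 0 lower, 3 and 1 with lncRNA capture alone (the latter Cfap70), and 7 to 12 with 1 tissue left out (7 without whole brain, 7 without cortex). All genes called lower there were 1183, 641 with lncRNA capture alone and 733 to 899 with 1 tissue left out. For the tissue labelled testis against the organs, 1 motile cilia gene (Cfap57) was called by fragment scaling and 1 with splice junction capture alone. All genes called higher were 332, 198 with a pseudocount of 0.1, 527 without the filter, 785 by fragment scaling and 190 with lncRNA capture alone. Called lower were 22, with 37 at a pseudocount of 10, 35 without the filter, 13 and 35 with lncRNA and splice junction capture alone, and 33 to 244 with 1 organ left out (244 without heart, 69 without liver). The median of the motile cilia genes in that comparison, −0.06, turned to 0.0448 with a pseudocount of 0.1, 0.0240 by fragment scaling and 0.0437 without kidney, with a range of −0.144 to 0.0437 when 1 organ was left out. Between the designs, 6 motile cilia genes were higher with lncRNA capture, 3 by fragment scaling. The causes were not tested. The tissue is the unit, so the p-values measure the spread between tissues and not the depth. Whole brain takes in the regions sampled separately, so the brain tissues are not fully independent. Their spread may be understated, and the p-values may be too small. At 1.60 units per fragment, heart sets the limit for low values.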
